A study of Arabidopsis thaliana with 32 samples.

Results

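The comparison described here sets 8-d-old roots of the Arabidopsis thaliana mutant sku5 against roots of its wild type WS (Wassilewskija), both grown on the International Space Station. It holds the 1409 loci that the authors' Cuffdiff test marked significant, at a q-value under 0.05, between these 2 groups, of 4882 loci listed in any of the 11 comparison tables of the study. It asks how the mutant root differs from the wild type root when both have developed in orbit. WS and sku5 each had 4 samples of whole dissected roots, with 2 to 3 roots pooled in a sample. Seedlings grew on plates of solid medium held upright under the lamps of the Veggie unit and were fixed in RNAlater on orbit; the matching ground groups of 8 d grew in the same hardware on Earth with a 48-h delay. Ground groups of 4 d, with 4 samples each and 5 to 8 roots pooled in a sample, are also quoted in places. The labels name no allele of sku5 and no second mutant line. The authors' deposited table gives a single FPKM value (fragments per kilobase of transcript, scaled to the mapped fragments of the library) for each group, so the spread between the 4 samples cannot be shown and the depth of each sample is unknown. An approximate standard error was read from the authors' log2 fold change and test statistic, with a median of 0.28 on the log2 scale in this comparison.

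SKU5 encodes a glycoprotein of the multicopper-oxidase-like family that is anchored in the plasma membrane and reaches the cell wall. Roots of sku5 mutants slant strongly to one side on upright plates, and the gene is known for its part in directional root growth. Plants grown in orbit lack the steady pull that orients roots on Earth, while light still gives them a direction.

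The mutated gene was low in the mutant. In the authors' deposited table SKU5 (AT4G12420; authors' coordinates chromosome 4, 7143426 to 7147294, whose genome build the sources used here do not give) stood at 61.9 FPKM in WS and 14.2 FPKM in sku5. That is 4.35-fold lower in sku5, a log2 fold change of -2.12 with an approximate SE of 0.24 and a Cuffdiff q of 0.00182. Ground plants had 78.6 and 23.5 FPKM at 8 d and 38.9 and 10.4 FPKM at 4 d, in WS and sku5, per the authors' deposited tables. The transcript was thus lower in the library groups labelled sku5 in each table, and was still measured there.

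Of these loci, 580 were higher and 829 lower in sku5 in the authors' deposited table, or 41.2% and 58.8% of those called. Set against the 4882 loci listed in any table, which stand in for the unknown number that the authors tested, 11.9% were called higher and 17% lower, 28.9% in all. Most differences were small. The median fold, in either direction, was 1.46, and 58 loci were at least 2-fold higher and 81 at least 2-fold lower, 1.19% and 1.66% of the same 4882. In RNA from whole roots, fewer cells of a type and less RNA per cell cannot be told apart.

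Direction went with the length of the transcript. By the longest transcript in RefSeq, loci higher in sku5 had a median length of 2306 nt and loci lower in sku5 a median of 903 nt. Of 488 called loci under 1000 nt, 476 were lower in sku5, or 97.5%. Of 415 called loci with 2000 nt or more, 372 were higher, or 89.6%. Between 1500 and 2000 nt, 127 of 168 were higher. On the ground at 8 d the lean was the same way, with 75.2% of 125 called loci under 1000 nt lower and 89.1% of 165 loci with 2000 nt or more higher. The level leaned too, since loci higher in sku5 had a median of 15.5 FPKM in WS and loci lower in sku5 a median of 149 FPKM. The part that length or level plays in the group results that follow was not tested, and lengths are given for most of the larger groups. Against the lean, 12 loci under 1000 nt were higher in sku5, and 43 loci of 2000 nt or more were lower, among them SKU5 itself.

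**Figure D1:**
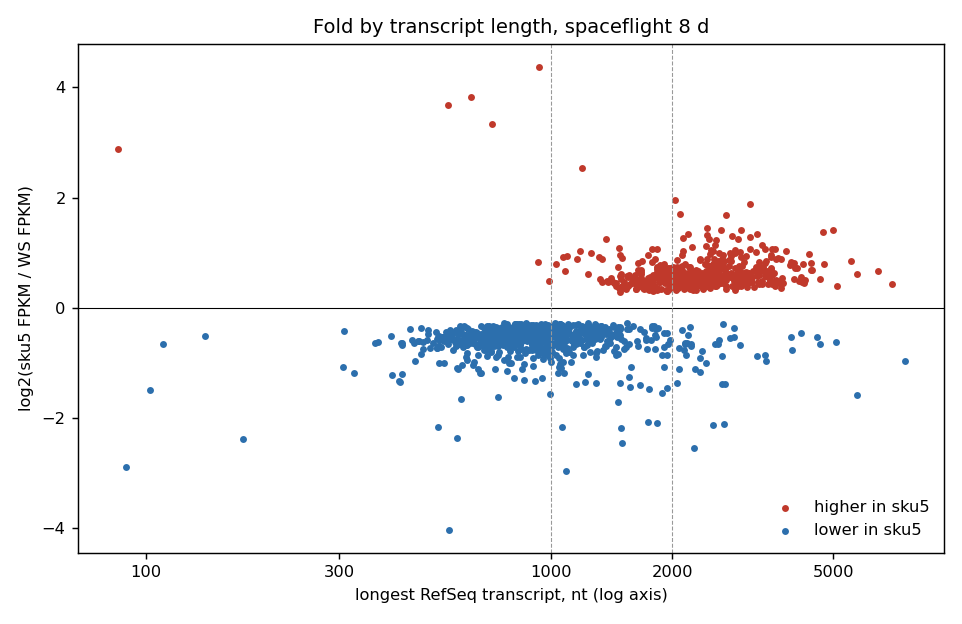
Each point is a called locus with a single gene name and above 0 in both groups. It is placed by the length of its longest RefSeq transcript in nt (log axis). The other axis is log2 of the FPKM in sku5 over that in WS, spaceflight 8 d. Dashed lines mark 1000 and 2000 nt. Counting loci listed at 0, which have no point, 97.5% of called loci under 1000 nt were lower. Of those with 2000 nt or more, 89.6% were higher.

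Primary transcripts of microRNAs were among the largest falls. MicroRNA genes are copied into long precursors that are cut to mature RNAs of about the length printed here. Bases 2 to 8 of a mature RNA are called the seed. These libraries were primed for polyadenylated RNA, so the values describe precursors and not mature RNAs. All 4 of the called microRNA genes, of 8 listed in any table, were lower in sku5, with a median log2 fold change of -1.94 against -0.53 over all loci called lower. They are 50% of the 8, beside 28.9% over all listed loci. Mature RNAs of each precursor, from the RefSeq TAIR10.1 annotation, are shown because the precursors are otherwise known only by name. Of the pair of arms annotated for MIR173 and for MIR162a, the arm with the known role named below is printed and miR173-3p and miR162a-5p are left out; capitals mark the seed.
miR160b: uGCCUGGCucccuguaugcca
miR161.1: uGAAAGUGacuacaucggggu
miR161.2: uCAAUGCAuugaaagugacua
miR173-5p: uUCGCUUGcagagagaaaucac
miR162a-3p: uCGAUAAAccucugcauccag
No pair of these shares a seed. MIR160b (AT4G17788), whose product cuts the transcripts of the auxin response factors ARF10, ARF16 and ARF17, stood at 18.7 FPKM in WS and 2.52 FPKM in sku5 in the authors' deposited table, 7.39-fold lower. None of these 3 targets is listed in this comparison. MIR161 (AT1G48267), whose products act on pentatricopeptide repeat transcripts, fell from 10.5 FPKM in WS to 2.02 in sku5 by the authors' deposited table, 5.22-fold. MIR173 (AT3G23125), which starts the making of trans-acting small RNAs, was at 7.65 and 2.71 FPKM in the authors' deposited table, and MIR162a (AT5G08185), whose product acts on the transcript of DICER-LIKE1, at 85.9 and 60.4 FPKM. The errors are wide: the log2 fold change of MIR160b is -2.89 with an approximate SE of 1.69, although the authors' deposited table gives it a q of 0.00182. RefSeq lengths of the 4 microRNA genes run from 89 to 173 nt, so the length classes above count them under 1000 nt. The authors' loci are longer for MIR160b (9628903 to 9630413) and MIR161 (17523586 to 17537454). The length of the precursors measured here is therefore not known.

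The largest differences at single genes ranged over many functions. Among single-gene loci above 0 in both groups and with at least 5 FPKM in the higher, AT1G12805, annotated as a nucleotide-binding protein, fell furthest in the authors' deposited table, from 29.3 FPKM in WS to 1.80 FPKM in sku5, which is 16.3-fold. CINV1, a cytosolic invertase that splits sucrose, was at 33.0 and 5.67 FPKM in the authors' deposited table, 5.83-fold lower. Its transcript is 2264 nt long, against the lean with length, and its approximate SE is above 1 on the log2 scale. ABCG14, a transporter that loads cytokinin for its way to the shoot, and IMS2, an enzyme of methionine chain elongation on the way to glucosinolates, each have 2 entries at the same coordinates that went opposite ways. ABCG14 was at 38.8 and 8.99 FPKM at the one entry and at 32.1 and 57.6 FPKM at the other, with q-values of 0.0430 and 0.00182 in the authors' deposited table. IMS2 was at 186 and 43.7 FPKM at the one and at 131 and 214 FPKM at the other in the authors' deposited table. Of 8 genes with 2 called entries 7 went opposite ways, so the direction of these 7 as genes is uncertain. CINV1, CSR1, CESA6, NRT1.1, RR3 and CLE5 have a second entry that other tables list and this one does not. A defensin-like gene, AT5G33355, had a smaller error: the authors' deposited table gives 144 and 28.0 FPKM, a log2 fold change of -2.36 with an approximate SE of 0.47. For ground plants of 8 d the authors' deposited tables of spaceflight against ground give this gene 59.9 FPKM in WS and 88.3 FPKM in sku5. The genotype difference on the ground was not called for it at 8 d.

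Among the 15 largest rises with at least 5 FPKM in sku5, genes of seed maturation were among the first. In the authors' deposited table AT1G03106, an uncharacterized gene, was at 3.85 FPKM in WS and 79.3 FPKM in sku5, 20.6-fold higher. LEA18, a late embryogenesis abundant protein, was at 1.13 and 16.0 FPKM in the authors' deposited table, the seed maturation protein AT2G21820 at 3.67 and 47.2 FPKM, and the dehydrin XERO1 at 0.998 and 10.1 FPKM. MLS, malate synthase of the glyoxylate cycle that turns seed oil into sugar, was 3.90-fold higher in the authors' deposited table. The other rises were mostly of long transcripts. PGDH, a first enzyme of serine synthesis, went from 9.51 FPKM in WS to 23.8 in sku5 by the authors' deposited table, and CSR1, the acetolactate synthase of branched-chain amino acid synthesis, from 9.86 to 23.5 FPKM. GNL1, a regulator of vesicle traffic, was 2.64-fold higher in the authors' deposited table, and IBR3, which acts on the auxin precursor indole-3-butyric acid, 2.65-fold.

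**Figure D2:**
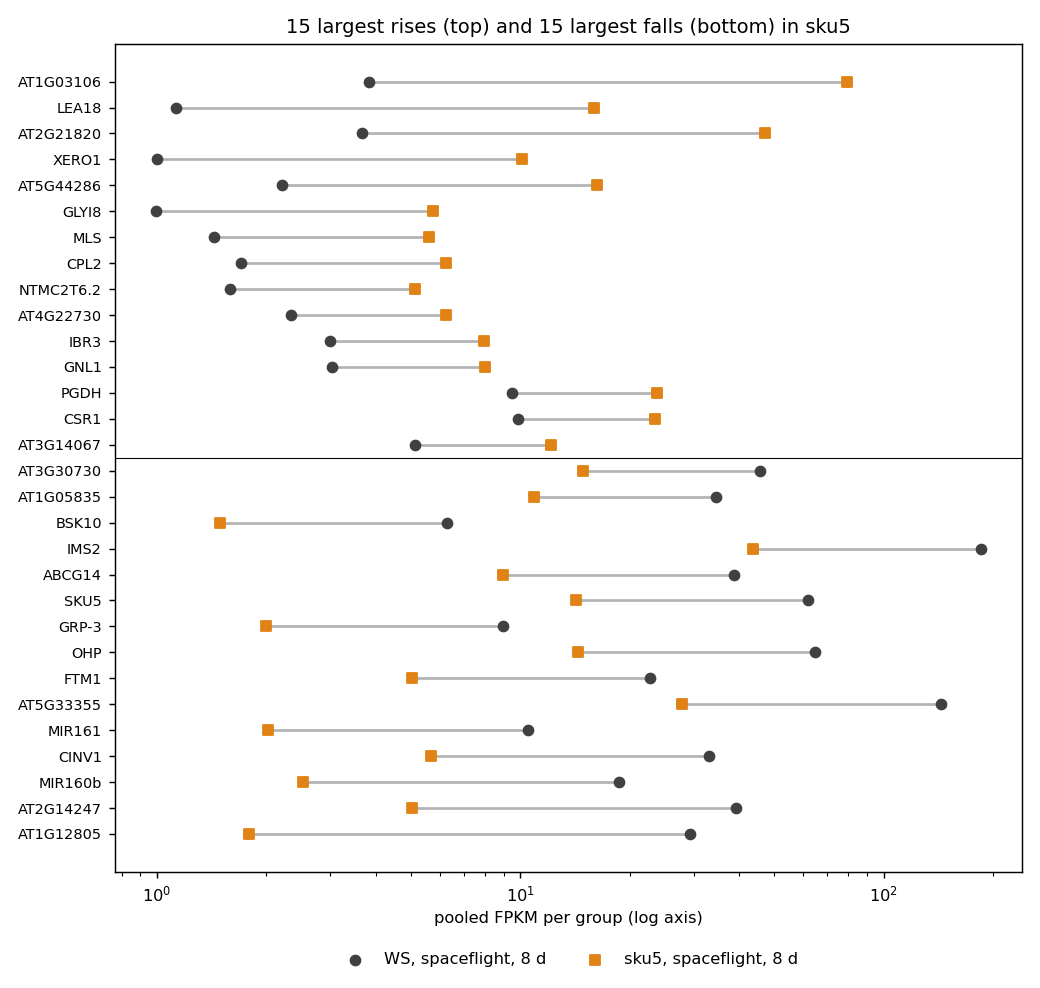
Pooled FPKM (log axis) in WS (circles) and sku5 (squares), spaceflight 8 d, of the 15 single-gene loci with the largest rises and the 15 with the largest falls, among those above 0 in both groups and with at least 5 FPKM in the higher. The largest rise is AT1G03106, 20.6-fold, and the largest fall AT1G12805, 16.3-fold.

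Seed storage genes were also among the loci listed at 0 in WS. The authors' deposited table lists 10 loci at 0 in one group, 9 of them at 0 in WS. PAP85, a seed storage cupin, was at 0 in WS and 15.9 FPKM in sku5 in the authors' deposited table. SESA2, a seed storage albumin, was at 0 and 13.9 FPKM there, in the authors' deposited table, and the dehydrin LEA (AT2G21490) at 0 and 8.39 FPKM. AtMT4a, a metallothionein, reached 5.48 FPKM and AT1G54860 4.96 FPKM in sku5, each at 0 in WS, per the authors' deposited table. Of 37 seed genes in the list used as a marker of residual seed, 16 loci are listed in any table and 4 were called here, all higher in sku5. That is 25%, below the 28.9% over all listed loci. Their summed level was 1.44 FPKM in WS and 43.8 FPKM in sku5. At 4 d on the ground the direction was the other: for that age the table deposited by the authors gives AT1G03106 at 191 FPKM in WS and 4.73 FPKM in sku5, AT2G21820 at 197 and 8.07 FPKM, and PAP85 at 53.2 and 0.831 FPKM. Whether a single sample of the 4 carries these values cannot be seen from group values.

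Of root hair genes, 4 of 10 listed loci were called, or 40% beside 28.9% over all loci, and all 4 were lower in sku5, with a summed level of 475 FPKM in WS and 316 FPKM in sku5 in the authors' deposited table. They were CPC (69.6 and 43.7 FPKM in the authors' deposited table), which favours the hair fate, ADF8, which severs actin, the cell wall protein RHS13, and MYB66, which holds cells in the non-hair fate. CPC and MYB66, which have opposite roles in hair fate, both fell. Their lengths ran from 763 to 1400 nt. Of photosynthesis genes, a marker of green shoot tissue, 1 of 15 listed loci was called (6.67%), and of xylem and secondary wall genes 1 of 13 (7.69%). Root cap and meristem genes gave 2 called of 9 (22.2%), both lower.

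Genes of the SKU5 family went the other way from SKU5. All 5 family loci listed in any table were called here, or 100% beside 28.9% over all loci. SKU5 was lower and 4 relatives were higher, 2 of these relatives at a q-value under 0.01 and 0 at least 2-fold. SKS6 went from 50.2 FPKM in WS to 80.9 in sku5 by the authors' deposited table, 1.61-fold, and SKS1 was 1.57-fold higher, at 11.0 FPKM in sku5. In the same deposited table of the authors sks17 was at 56.8 and 82.1 FPKM and sks5 at 71.4 and 97.7 FPKM, with q-values of 0.0307 and 0.00182. The proteins are close relatives of SKU5, and their transcripts, like that of SKU5, are 2117 to 2517 nt long, in the class where 89.6% of called loci were higher. The relatives of SKU5 are not listed in the ground table of 8 d, where 1 family locus, SKU5, was called.

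**Figure D3:**
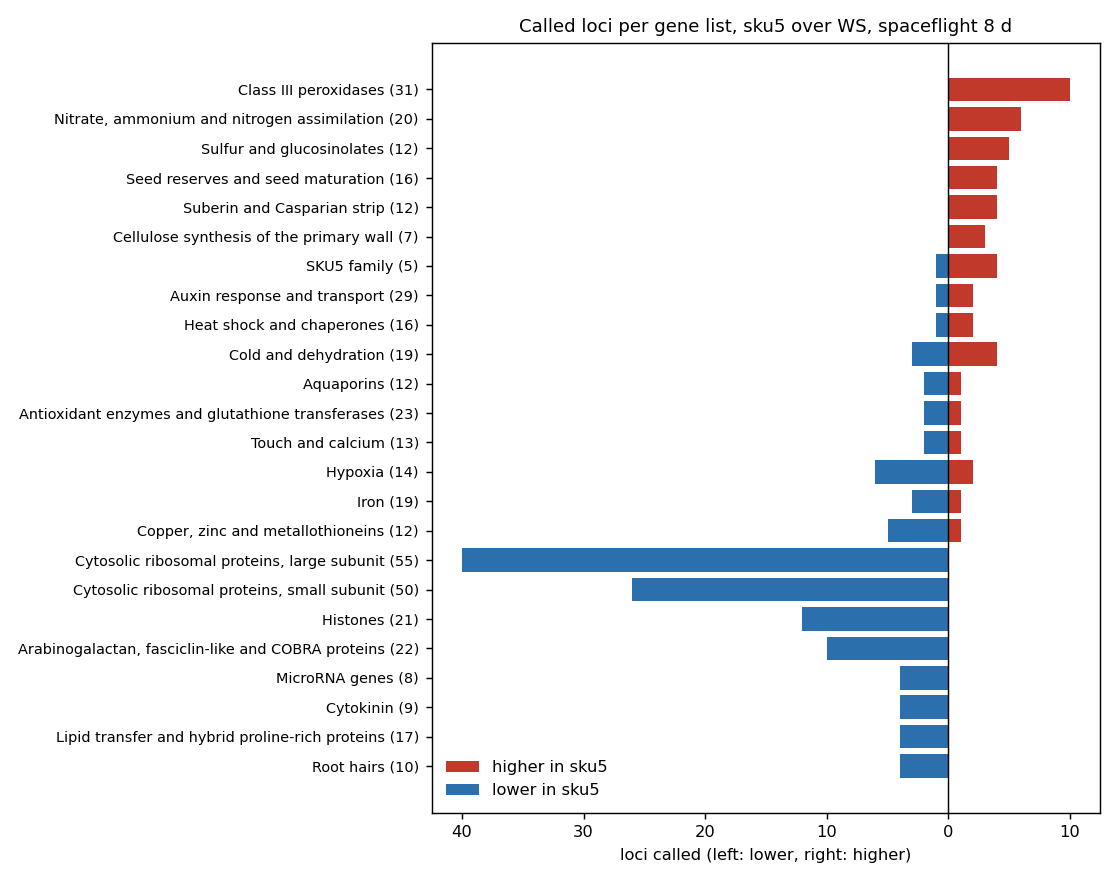
Bars count the loci called higher (right) and lower (left) in sku5, spaceflight 8 d, for each gene list with at least 3 called loci; the number in brackets is how many loci of the list are listed in any table. Ribosomal protein genes stand out by number, with 40 and 26 lower and 0 higher.

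Cell wall genes split by class. Class III peroxidases, secreted enzymes that stiffen or loosen walls by way of hydrogen peroxide, had 10 of 31 listed loci called, all higher in sku5. The share of 32.3% lies near the 28.9% of all loci. AT5G19890 rose most, from 16.7 FPKM in WS to 39.5 in sku5 by the authors' deposited table, 2.36-fold with a q of 0.00182. AT4G11290 went from 65.4 FPKM in WS to 121 in sku5 by the authors' deposited table and AT2G38380 from 202 to 324 FPKM. Pairs such as PRXCA and PRXCB are near copies that the authors' table merges. The median length of the called peroxidases was 1380 nt, in the class of 1000 to 1500 nt where 85.7% of called loci were lower, so this group runs against the lean with length. On the ground at 8 d 6 of the 31 listed peroxidase loci were called, all higher in sku5, beside 10.8% called there over all listed loci. Of all loci called there 60.6% were higher.

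Of 7 listed genes of cellulose synthesis in the primary wall 3 were called, or 42.9% beside 28.9% over all loci, and those 3 were higher: CEV1, a cellulose synthase subunit, from 24.3 FPKM in WS to 49.6 in sku5 by the authors' deposited table, GH9A1, the membrane-bound cellulase KORRIGAN, from 44.7 to 82.6 FPKM, and CESA6 from 18.5 to 25.5 FPKM. These transcripts are 2540 to 4172 nt long. Suberin genes, whose products waterproof the endodermis, gave 4 called of 12, all higher, a share of 33.3% that lies near the 28.9% of all loci; they were led by the fatty acid reductase FAR4 at 15.6 and 24.5 FPKM and the acyltransferase FACT at 21.2 and 33.1 FPKM in the authors' deposited table. FACT was also higher in sku5 on the ground at 8 d, at 24.6 and 40.5 FPKM in the authors' deposited table. The 3 called suberin loci with a single gene name are 1672 to 2936 nt long.

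Arabinogalactan proteins are small, heavily glycosylated wall proteins, many of them held in the membrane by the same kind of lipid anchor as SKU5. Of 22 listed loci of this family, fasciclin-like and COBRA proteins included, 10 were called, or 45.5% beside 28.9% over all loci, and all 10 were lower. Their median log2 fold change was -0.62, against -0.53 over all loci called lower. AGP13 fell from 1038 FPKM in WS to 485 in sku5 by the authors' deposited table, 2.14-fold. AGP22 went from 709 FPKM in WS to 404 in sku5 by the authors' deposited table, AGP3 from 284 to 169 FPKM and AGP21 from 1721 to 1109 FPKM. The 8 called loci with a single gene name are 427 to 1034 nt long, where nearly all called loci were lower. On the ground at 8 d 6 of the 22 were called, 4 lower and 2 higher in sku5, beside 10.8% called there over all listed loci. AGP13 was lower there as well, at 1188 and 807 FPKM in the authors' deposited table, while AGP3 was higher, at 220.4 and 302 FPKM. Lipid transfer and hybrid proline-rich proteins, small secreted proteins, gave 4 called of 17 (23.5%), all lower, by 1.29- to 1.56-fold. The 2 of them with a single gene name are 979 and 1194 nt long.

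The protein synthesis machinery showed the largest block of falls by number. Of cytosolic ribosomal proteins, 40 of 55 listed loci of the large subunit and 26 of 50 of the small subunit were called, or 72.7% and 52.0% beside 28.9% over all loci, all of them lower in sku5. The median log2 fold changes were -0.42 and -0.46, smaller falls than the -0.53 over all loci called lower. AT3G56020, an L41 protein, went from 2414 FPKM in WS to 1458 in sku5 by the authors' deposited table, and RPS28 from 1763 to 1140 FPKM. Many of these genes have near-identical copies, among which reads can be split. On the ground at 8 d 10 of the 55 and 13 of the 50 were called, beside 10.8% called there over all listed loci. All 10 of the large subunit and 12 of the 13 of the small subunit were lower in sku5 there too. Histones gave 12 called of 21 (57.1%), all lower, by 1.22- to 1.45-fold. The median transcript lengths of the 3 groups were 809, 830 and 818 nt.

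Of 9 listed cytokinin loci 4 were called, or 44.4% beside 28.9% over all loci, and 1 of the 4 at a q-value under 0.01. They were ARR15, RR3, ARR3 and RR5, type-A response regulators that cytokinin induces and that damp its signal, and all were lower in sku5. Their transcripts are 1079 to 2370 nt long. ARR15 went from 20.3 FPKM in WS to 8.95 in sku5 by the authors' deposited table, 2.27-fold with a q of 0.0270. RR3 went from 28.4 to 16.4 FPKM, ARR3 from 22.0 to 15.4 FPKM and RR5 from 48.8 FPKM in WS to 35.5 in sku5 by the authors' deposited table. On the ground at 8 d RR3 was higher in sku5 instead, at 11.0 and 24.8 FPKM in the authors' deposited table. Auxin genes gave 3 called of 29 (10.3%): the transporters ABCB1 (10.7 and 18.6 FPKM in the authors' deposited table) and LAX3 (69.4 and 92.4 FPKM) were higher, and the repressor IAA28 (243 and 187 FPKM) was lower.

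Of 14 listed loci of the low-oxygen response 8 were called, or 57.1% beside 28.9% over all loci, 6 lower and 2 higher. FTM1, a stearoyl-ACP desaturase induced by low oxygen, fell from 22.8 FPKM in WS to 5.04 in sku5 by the authors' deposited table, 4.51-fold, and the haemoglobin HB2 from 51.3 to 17.3 FPKM, 2.96-fold. HB1, the other haemoglobin, was at 113 and 80.8 FPKM in the authors' deposited table, and AT5G66985 at 125 and 68.9 FPKM. GAD, glutamate decarboxylase, and AT1G19530 were the 2 that rose, to 175 and 24.9 FPKM in the authors' deposited table. On the ground at 8 d 6 of these 14 listed loci were called, all higher in sku5, beside 10.8% called there over all listed loci. Of all loci called there 60.6% were higher. The 8 loci called in spaceflight had a median length of 1178 nt.

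Of copper, zinc and metallothionein genes 6 of 12 were called, or 50% beside 28.9% over all loci, 5 lower and 1 higher. Their transcripts had a median length of 805.5 nt. The copper importers COPT1 (26.8 and 15.3 FPKM) and COPT2 (155 and 107 FPKM) and the metallothionein MT2A (192 and 127 FPKM) were lower in the authors' deposited table. Of 19 listed iron loci 4 were called (21.1%), 3 lower and 1 higher, with AT1G47400 at 101 and 45.2 FPKM and the merged locus of the iron-deficiency regulators bHLH38 and bHLH39 at 32.1 and 16.9 FPKM in the authors' deposited table. Nitrogen genes gave 6 called of 20, a share of 30% that is near that of all loci, and the 6 were higher. They hold the nitrate transporters NRT1.1 (17.3 and 28.9 FPKM in the authors' deposited table) and NRT1.5, the nitrate reductase NIA2 (36.1 and 57.6 FPKM), the amino acid importer LHT1, asparagine synthetase ASN1 and glutamate dehydrogenase GDH2. On the ground at 8 d 8 of the 20 listed nitrogen loci were called, all higher in sku5, beside 10.8% called there over all listed loci. Of all loci called there 60.6% were higher. Sulfur and glucosinolate genes gave 5 called of 12 (41.7%), all higher, led by the sulfate-reducing enzyme APR3 at 20.1 and 42.1 FPKM in the authors' deposited table. The nitrogen and sulfur transcripts are 1859 to 3205 nt and 1785 to 2560 nt long, in the classes that leaned higher.

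Cold and dehydration genes gave 7 called of 19, or 36.8% beside 28.9% over all loci, 4 higher and 3 lower. XERO1 was among the higher, and RCI2A, RCI2B and KIN2 were lower. Heat shock genes were 2 higher and 1 lower of 16, or 18.8% called. Hsp70b was at 2.77 and 6.49 FPKM and MBF1C at 53.7 and 30.3 FPKM in the authors' deposited table. Touch and calcium genes were 1 higher and 2 lower of 13 (23.1%), aquaporins 1 and 2 of 12 (25%), and antioxidant enzymes 1 and 2 of 23 (13.0%). Extensins gave 1 called of 19 (5.26%), lower. On the ground at 8 d 11 of the 19 were called, all higher in sku5, beside 10.8% called there over all listed loci. Phosphate starvation genes gave 0 called of 12. The genes of tubulin, actin and root skewing gave 2 called of 11 (18.2%), both higher, by 1.26- and 1.39-fold.

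The ground table of 8 d shares no sample with the spaceflight comparison, so its calls can be set beside these. It lists 525 loci, 10.8% of the 4882, with 318 higher (6.51%) and 207 lower (4.24%) in sku5. Of its loci 156 are also called in spaceflight, 11.1% of the spaceflight list and 29.7% of the ground list. Both shares lie near those of all listed loci, 10.8% called on the ground and 28.9% in spaceflight. In 120 of the 156 sku5 differed from WS in the same direction, 89 lower and 31 higher, and in 36 in the opposite direction. The median transcript length was 783 nt for loci lower in both and 1900 nt for loci higher in both, which is the lean described above. Beside SKU5, shared falls included those of BSK10, a kinase of the brassinosteroid signalling family, of OHP, a one-helix protein of the light-harvesting family, and of FHL, which carries phytochrome A into the nucleus. OHP was at 64.6 and 14.4 FPKM in spaceflight and 81.4 and 20.1 FPKM on the ground, in WS and sku5, per the authors' deposited tables. BSK10 was at 6.28 and 1.49 FPKM in spaceflight and 7.44 and 1.37 FPKM on the ground, per the authors' deposited tables. Fes1C fell 2.55-fold in spaceflight and 1.86-fold on the ground, and CLE5, a small signal peptide, 1.92- and 1.94-fold, per the authors' deposited tables. A locus with no gene name on chromosome 3 (11549116 to 11549416) fell 4.36- and 3.39-fold. The peroxidase AT5G19890 was higher in sku5 in both, 2.36-fold in spaceflight and 4.65-fold on the ground.

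**Figure D4:**
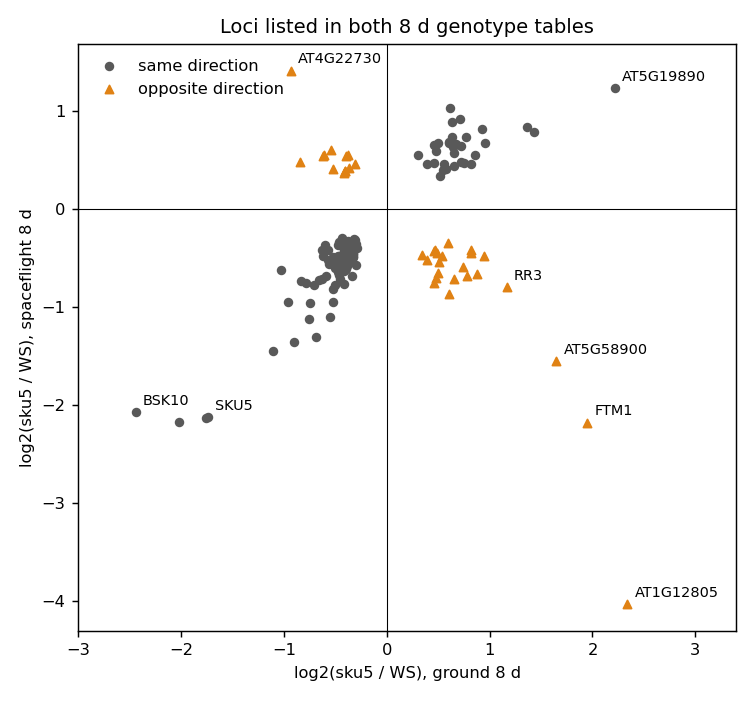
Log2 of sku5 over WS on the ground (x) and in spaceflight (y), 8 d, for the 156 loci called in both tables, which share no samples. Circles are the 120 loci with the same direction and triangles the 36 with opposite directions; AT1G12805 and FTM1 lie furthest into the opposite quadrant.

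Among loci with opposite directions, 23 were lower in sku5 in spaceflight and higher on the ground, and 13 the reverse. AT1G12805 stood at 4.49 FPKM in WS and 22.7 FPKM in sku5 on the ground, and at 29.3 and 1.80 FPKM in spaceflight, per the authors' deposited tables. FTM1 stood at 4.19 and 16.2 FPKM on the ground and at 22.8 and 5.04 FPKM in spaceflight, per the authors' deposited tables. In both genes the mutant was the higher group on Earth and the wild type in orbit. AT5G58900, a homeodomain-like regulator, had 10.3 and 32.2 FPKM on the ground and 39.9 and 13.7 FPKM in spaceflight, per the authors' deposited tables. The receptor-like kinase AT4G22730 went the other way, with 10.1 and 5.28 FPKM on the ground and 2.34 and 6.24 FPKM in spaceflight, per the authors' deposited tables. ORG1 had 17.6 and 32.3 FPKM on the ground and 23.3 and 14.7 FPKM in spaceflight, per the authors' deposited tables. PLDALPHA1, a phospholipase that makes phosphatidic acid and 1 of the 7 genes with entries that went opposite ways, had 58.6 and 100.8 FPKM on the ground and 110 and 68.5 FPKM in spaceflight at the locus called in both, per the authors' deposited tables. Values from tables that share a group differed by at most 1.08% in scale.

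**Figure D5:**
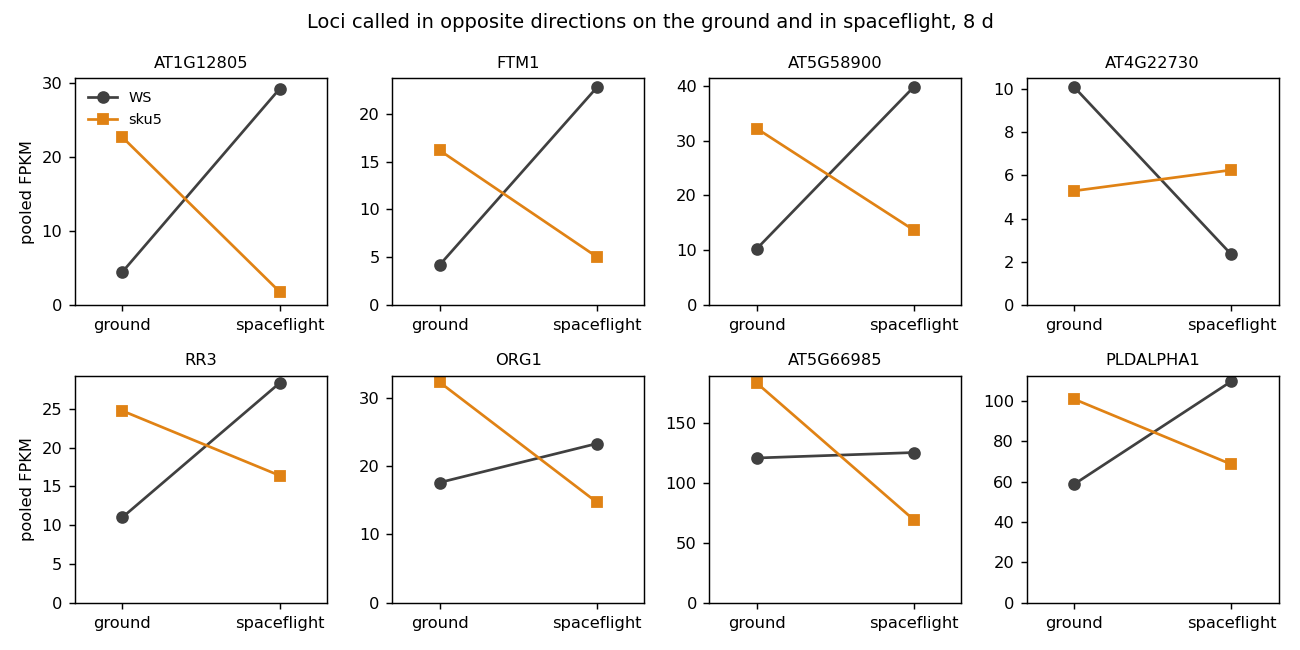
Pooled FPKM of the 8 loci with the largest difference between the genotype effect on the ground and in spaceflight, 8 d; circles are WS and squares sku5, and each point is the value of 1 group of 4 samples. The lines of WS and sku5 cross in every panel because the loci were chosen from those called in opposite directions. In FTM1, WS goes from 4.19 to 22.8 FPKM and sku5 from 16.2 to 5.04 FPKM.

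Called loci lay on all 5 chromosomes, at 25.2% to 30.3% of the loci listed in any table. Within 1 Mb of SKU5, SKU5 itself left out, 28 of 104 listed loci were called, or 26.9% beside 28.9% over all, and 2 of them were at least 2-fold. AT4G14360, a methyltransferase-like protein, was at 6.97 and 14.4 FPKM in the authors' deposited table. The papain-family protease AT4G11320 was at 108 and 48.1 FPKM at one entry and at 97.5 and 142 FPKM at a second entry in the authors' deposited table, so its direction as a gene is uncertain. Smaller differences near SKU5 were those of RHA1A, the peroxidase AT4G11290, and the small signal peptides CLE44 and RALFL32, by 1.76- to 1.92-fold in the authors' deposited table.

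The first 1 Mb of chromosome 5, singled out after its values were seen, held more differences of at least 2-fold than any other window of that size with at least 20 listed loci. There 27 of 63 listed loci were called, or 42.9%, and 9 were at least 2-fold, while the next of the 104 such windows had 4 and the median window 1. The 9 lay between positions 22637 and 488461 in the authors' coordinates. OHP, BSK10, FHL and Fes1C are described above. AT5G01740 fell from 32.5 FPKM in WS to 13.2 in sku5 by the authors' deposited table, AT5G01790 from 25.1 to 11.0 FPKM and the SNARE-like gene AT5G02280 from 326 to 150 FPKM. CPL2, a phosphatase of the RNA polymerase II tail, was the 1 that rose, from 1.70 FPKM in WS to 6.25 in sku5 by the authors' deposited table. On the ground at 8 d 17 of the 63 listed loci of the window were called, beside 10.8% called there over all listed loci. Of the 12 called there and in spaceflight 11 went the same way, beside 76.9% of all 156 loci called in both. FHL was lower in sku5 at 4 d as well, in the table of ground plants that the authors deposited, at 22.3 and 9.97 FPKM, and AT5G02280, at 341 and 184 FPKM. Between spaceflight and ground in WS at 8 d, 5 of the 63 loci were called, beside 888 of all 4882, and 0 were at least 2-fold. Between spaceflight and ground in sku5 at 8 d, 18 of the 63 were called, beside 1648 of all 4882, and 3 were at least 2-fold.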

How the data were processed

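The authors sequenced 32 whole-root samples in 8 groups; each library took 10 ng of RNA through a SMART-Seq v4 kit and then a Nextera kit, per the labels' protocols. Cuffdiff, Cufflinks, Picard, STAR 2.5.1b, FastQC 0.11.2 and Trimmomatic 0.36 are named in the submitters' processing notes; roles and genome build are not given in the sources used here. The authors deposited 1 pooled FPKM per group and locus, with a log2 fold change, a test score, and p-values and q-values (p in steps of 5e-05), per the file headers. Only loci at q under 0.05 are listed, so depth, replicate spread and the number tested are unknown.

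Tables were turned to sku5 over WS with pandas 2.3.3 on Python 3.11.15. The approximate SE is the authors' log2 fold change over their score. It is a rough scale, since some deposited q-values are lower than that ratio would give. No test was added. The planned fit of separate libraries could not be made from group values, so the authors' calls were used as deposited.

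Names, products and lengths came from RefSeq TAIR10.1 by identifier, for 1301 of the 1305 single-gene loci called here. Its coordinates differ from the authors' and none is printed. The 41 gene lists (35 of them, with 1071 genes, by identifier) and the comparisons were chosen with earlier results of these data known. Genes named are SKU5; the 15 largest rises and falls among single-gene loci with at least 5 FPKM in the higher group and above 0 in both; the 5 highest of those listed at 0; up to 6 of each list with 3 called loci; 8 loci each with the same and with opposite directions in both 8 d genotype tables; and 6 near SKU5. Genes named beyond these, such as HB1 and those of the chromosome 5 window, were chosen after their values were seen. Alternatives were stricter q, fold and level thresholds.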

Additional observations from a re-analysis of the deposited data

Results flagged for a closer look

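The approximate difference between the genotype effect in spaceflight and that on the ground, on the log2 scale of sku5 over WS at 8 d, exceeded 3 of its own standard errors, with opposite directions in the 2 tables, for 5 of the 8 loci with the largest such difference. These differences were not tested. The loci were taken from the 36 called in opposite directions in the 2 tables, a choice that favours a difference large for its error. Among all 36 the smallest difference was 2.16 of its errors. Loci outside the 8, such as HB1 at -1.42 (SE 0.33), also passed 3. The spaceflight minus ground difference was -6.37 (SE 1.38) for AT1G12805, -4.12 (SE 0.69) for FTM1, -1.96 (SE 0.64) for RR3, -1.54 (SE 0.40) for ORG1 and -1.46 (SE 0.37) for AT5G66985. AT5G58900 and AT4G22730, with larger differences than RR3, had wider errors and stayed under that limit.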

How the results depend on the processing

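With a deposited q-value under 0.01 the counts fell to 286 loci higher and 486 lower, and with a fold of at least 2 to 58 and 81. The 120 and 36 loci called in both 8 d genotype tables, in the same and in opposite directions, became 59 and 17 with a q-value under 0.01 in both, and 6 and 3 with a fold of at least 2 in both. Restricting to single gene names, to at least 1 or 5 FPKM in the higher group, or to loci not listed at 0 kept each count within 1.5 times. The log2 fold changes of SKU5 and of 142 other named genes stayed within their approximate SE with 1 added to each FPKM. Of 34 list counts, 18 stayed within 1.5 times at a q-value under 0.01, and 21 went to 0 at a fold of at least 2. No paired analysis was possible because the tables hold values per group only; for the same reason no replicate could be left out. Depth is unknown, so no lower limit of detection can be given.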

Other observations

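Of the 43 called loci with 2000 nt or more that were lower in sku5, 10 were at least 2-fold lower; those named here were chosen after their values were seen. BGLU22, a beta-glucosidase of endoplasmic reticulum bodies, was at 581 FPKM in WS and 270 FPKM in sku5 in the authors' deposited table. AT5G16610, uncharacterized, went from 33.1 FPKM in WS to 12.7 in sku5 by the authors' deposited table. On the ground at 8 d it had 22.7 FPKM in WS and 25.3 FPKM in sku5, by the authors' deposited tables of spaceflight against ground. The genotype difference on the ground was not called for it at 8 d. Smaller falls were those of PCL1, a clock transcription factor, at 47.3 and 25.7 FPKM, and of PKS1, a phytochrome kinase substrate, at 12.2 and 6.68 FPKM in the authors' deposited table. NIP5;1, a boric acid channel of the aquaporin family, was at 81.2 and 52.0 FPKM in the authors' deposited table.

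The 7 genes with a pair of called entries that went opposite ways at the same coordinates were ABCC1, ABCG14, PPC1, VHA-A, PLDALPHA1, AT4G11320 and IMS2. PLDALPHA1 went from 29.6 FPKM in WS to 59.7 in sku5 by the authors' deposited table at the one entry and from 110 to 68.5 FPKM at the other. PPC1, phosphoenolpyruvate carboxylase, was at 8.88 and 18.7 FPKM at the one entry and at 140 and 76.9 FPKM at the other in the authors' deposited table. ABCC1, a vacuolar transporter of the multidrug-resistance family, was at 4.54 and 6.90 FPKM and at 11.8 and 3.97 FPKM in the authors' deposited table.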
